A study of Mus musculus with 9 samples.

Results

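The genes examined here encode potassium channels. They are the 94 protein-coding mouse genes of the GENCODE vM21 annotation whose symbols begin with Kcn, out of 21938 protein-coding genes on the autosomes, X and Y. By symbol they fall into 38 Kcna to Kcnh genes, 15 Kcnj genes, 14 Kcnk genes, 5 Kcnm genes, 4 Kcnn genes, 5 Kcnq genes and 13 others. The chromatin data are ChIC-Seq peak lists for PBRM1 and BRG1, with 3 replicate libraries and 1 pooled list for each antibody. In ChIC-Seq a nuclease tethered to an antibody cuts the chromatin around the bound protein, and the released DNA is sequenced. PBRM1 (BAF180) defines the PBAF class of SWI/SNF chromatin remodelers, while the BRG1 ATPase is shared by several classes. All libraries came from wild-type (WT) mice aged 8 to 12 weeks, mated and taken at D2 (day 2) of pregnancy. Both antibody groups therefore shared genotype, age and stage, and no mutant library was compared. The strain, and whether replicates were separate animals, were not given in the sources used here, so p-values measure only the spread between these libraries. Oviducts were digested with enzymes, passed through a filter and kept in a dish for a few hours, and no sort for muscle cells was described. Each library was made from 50000 cells fixed with 1% formaldehyde for 5 min. The control IgG samples were not analysed here, and signal without the antibodies was not measured.

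Potassium channels set the resting potential of smooth muscle. When they open, potassium leaves the cell, the membrane becomes more negative, voltage-gated calcium channels stay closed and the muscle relaxes. The classes differ in what opens them. Kcna to Kcnd and Kcnq genes encode voltage-gated pores, Kcnf, Kcng, Kcns and Kcnv encode pores that are silent alone and modify others, and Kcnh genes encode the ether-a-go-go family. Kcnj genes encode inward rectifiers, Kcnk genes encode tandem-pore leak channels, Kcnma1 encodes the large-conductance calcium-activated (BK) pore, and Kcnn genes encode small- and intermediate-conductance calcium-activated channels. Kcnab, Kcne, Kcnmb and Kcnip genes encode accessory subunits.

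A promoter peak was a peak with its summit within 2 kb of the start of any annotated transcript of the gene. The height of a peak is given as scaled pileup, the number of fragments covering its summit for every 1000000 fragments in that library. PBRM1 libraries held 18126049 to 23992352 fragments and 31970 to 38147 peaks, and the shallower BRG1 libraries held 14284532 to 15897724 fragments and 35220 to 39467 peaks. The lowest peak called in a library had a scaled pileup of 0.333 to 0.386 for PBRM1 and 0.377 to 0.420 for BRG1. A call also depended on the local background, so a gene without a peak is one where none was called. A promoter peak is not a measure of transcription, but it was looked for at marker genes of the labelled cell type. Of 7 smooth muscle markers, *Acta2*, *Tagln* and *Smtn* had a promoter peak in all 6 lists, 3 had one in some lists and *Cnn1* had none. Among all protein-coding genes 41.4% had one in all 6 lists, 23.7% in some and 34.9% in none. The smooth muscle share in all 6 lists was thus close to that of genes in general and does not set these markers apart. No marker of oviduct epithelium (0 of 5), endothelium (0 of 2), leukocytes (0 of 1) or neurons (0 of 3) had one in all 6. Epithelial *Cdh1* had a peak in 3 lists and neuronal *Syt1* in 4. In the pooled lists 2 of the 5 epithelial markers had a PBRM1 peak and 4 a BRG1 peak. Epithelial *Foxj1*, with no replicate peak, had pooled scaled pileups of 0.985 (PBRM1) and 1.30 (BRG1), where *Tagln* had 1.13 and 1.26. The part of other cells in the results below was not tested.

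Potassium channel genes rarely carried a promoter peak in every library. A peak in all 6 replicate lists was found at 6 of the 94 genes (6.38%), compared with 41.4% of all protein-coding genes. The 6 were *Kcnab2*, *Kcnip3*, *Kcnj2*, *Kcnk2*, *Kcnk5* and *Kcnn2*. A peak in 1 to 5 lists was found at 45 genes, where the share among all protein-coding genes was 23.7%. The remaining 43 genes (45.7%) had no promoter peak in any replicate list, compared with 34.9% of all genes. At least 1 list held a peak at 51 genes (54.3%), compared with 65.1%. The gap to other genes thus lay mostly in how many libraries showed the peak and less in whether any did.

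**Figure D1:**
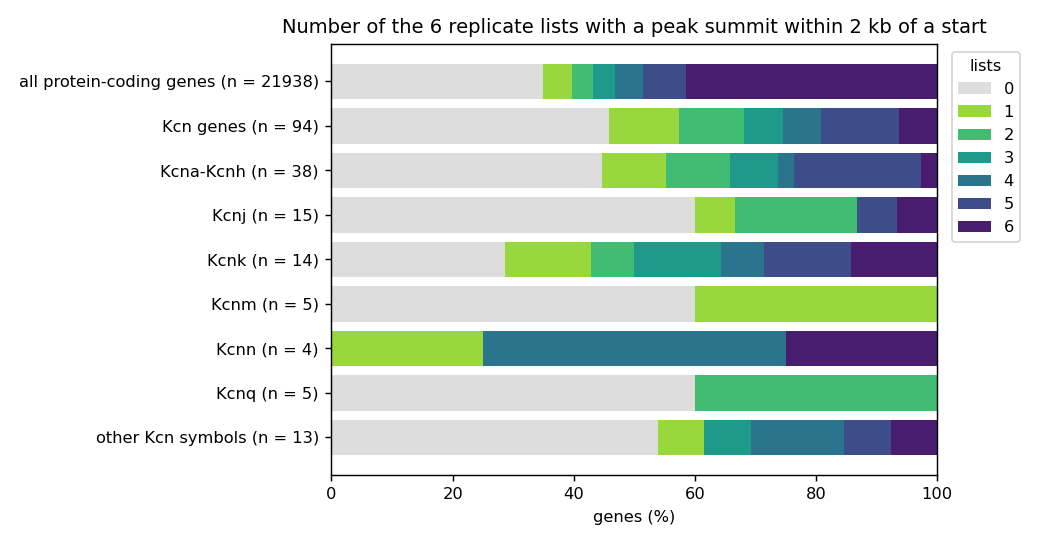
Share of genes (horizontal axis, %) by the number of the 6 replicate lists that held a promoter peak (color, 0 to 6), for all 21938 protein-coding genes, the 94 Kcn genes and each channel class. The dark segment for all 6 lists spans 41.4% of all genes and 6.38% of Kcn genes, and is missing from the Kcnm and Kcnq classes.

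The same held within single libraries. Promoter peaks lay at 23, 25 and 23 Kcn genes in PBRM1 replicates 1, 2 and 3, and at 34, 32 and 32 in BRG1 replicates 1, 2 and 3. As shares these were 25.2 ± 1.23% for PBRM1 and 34.8 ± 1.23% for BRG1 (SD, n = 3 each), and the libraries of the 2 antibodies did not overlap. Among all protein-coding genes the shares were 52.1 ± 1.44% and 56.4 ± 1.58% (SD, n = 3 each), and these did not overlap either. When a Kcn promoter did have a peak, the peak was lower than at promoters in general. The median scaled pileup at Kcn promoters with a peak lay between 0.717 and 0.998 across the 6 libraries, and that at all promoters with a peak lay between 1.04 and 1.73. The median over all peaks of a library, promoter or not, lay between 0.750 and 1.05. In the pooled lists a peak lay at 53 Kcn genes (56.4%) for PBRM1, where the share of all genes was 65.4%. The pooled BRG1 list had one at 60 (63.8%), where that share was 67.3%. The shares of Kcn genes and of all genes thus lay closer together after pooling, and 14 Kcn genes had a peak only there. At 29 Kcn genes (30.9%) none of the 8 lists held a promoter peak, compared with 30.3% of all genes.

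No Kcn promoter had a peak in every list of 1 antibody and none of the other. The pattern of a peak in all 3 BRG1 lists and no PBRM1 list was met by 0.748% of all genes and by no Kcn gene, and the reverse by 0.105% and again by no Kcn gene. A peak in all 3 lists of BRG1 was found at 17 Kcn genes (49.6% of all genes) and in all 3 of PBRM1 at 10 (43.8% of all genes). More BRG1 than PBRM1 lists held the peak at 28 of the 94 Kcn genes, where the share of all genes was 14.6%. More PBRM1 lists held it at 11, where that share was 5.44%. Among all genes the counts were 3197 and 1194. Both patterns need a peak in 1 to 5 lists, which 45 Kcn genes and 23.7% of all genes had.

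The classes differed in replicate support, although most hold few genes and no test was made between them. All 4 Kcnn genes had a promoter peak in at least 1 list, as did 10 of 14 Kcnk genes, 21 of 38 Kcna to Kcnh genes, 6 of 13 others, 6 of 15 Kcnj genes, 2 of 5 Kcnm genes and 2 of 5 Kcnq genes. A peak in at least 4 lists, found at 53.2% of all genes, was present at 3 Kcnn, 5 Kcnk, 10 Kcna to Kcnh, 4 other and 2 Kcnj genes and at no Kcnm or Kcnq gene. In the pooled lists the Kcnn and Kcnk classes also had the highest median peak heights. The median scaled pileup over genes with a pooled BRG1 peak was 1.22 in Kcnn, 0.874 in Kcnk, 0.730 in Kcnj, 0.719 in the others, 0.575 in Kcnm, 0.553 in Kcna to Kcnh and 0.398 in Kcnq. All of these medians were below that of all genes, 1.46. For PBRM1 the Kcnn and Kcnk medians were again highest, at 0.727 and 0.581, compared with 0.969 over all genes. Only 1 Kcnm and 1 Kcnq gene had a pooled PBRM1 promoter peak.

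**Figure D2:**
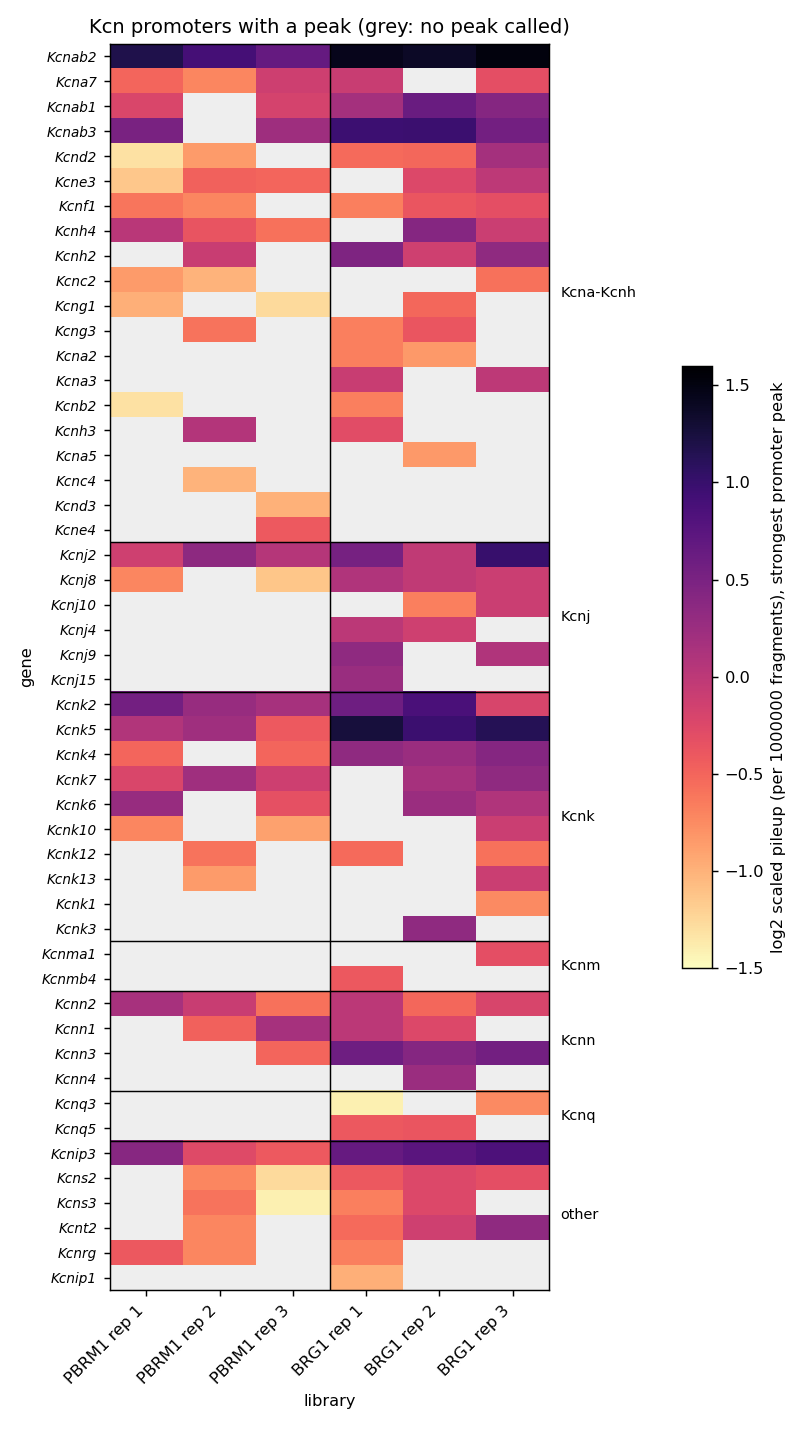
Log2 scaled pileup (per 1000000 fragments) of the strongest promoter peak (color) of 50 of the 51 Kcn genes with a peak in at least 1 list (vertical axis, by class and number of lists) in each of the 6 libraries (horizontal axis), with grey where no peak was called. Filled rows are few, and *Kcnab2* is the darkest in every library.

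The promoters with a peak in all 6 lists belonged to both pores and accessory subunits. *Kcnab2* encodes a beta subunit of voltage-gated channels that resembles aldo-keto reductases. Its scaled pileup was 2.27, 1.88 and 1.58 in PBRM1 replicates 1, 2 and 3, and 2.70, 2.59 and 2.86 in BRG1 replicates 1, 2 and 3. These were the highest values of any Kcn promoter in every library, and all BRG1 values lay above all PBRM1 values. The pooled BRG1 summit lay 65 bp inside *Kcnab2* and 336 bp from the start of *Nphp4*, so the peak lies near the starts of both genes and cannot be given to *Kcnab2* alone.

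*Kcnk5* encodes a leak channel sensitive to extracellular pH. It had a scaled pileup of 1.06, 1.16 and 0.750 for PBRM1 and 2.39, 1.96 and 2.19 for BRG1. The lowest BRG1 value was above the highest PBRM1 value. *Kcnip3* encodes a calcium-binding partner of voltage-gated channels, also known as a DNA-binding repressor. Its values were 1.31, 0.828 and 0.750 for PBRM1 and 1.57, 1.68 and 1.80 for BRG1, again without overlap. The strongest *Kcnip3* summit lay at an internal start, 39.4 kb into the gene in both pooled lists, and not at its 5′ end.

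*Kcnj2* encodes a strong inward rectifier that holds the resting potential. Its scaled pileup was 0.909, 1.27 and 1.04 for PBRM1 and 1.45, 0.980 and 2.00 for BRG1, and BRG1 replicate 2 fell among the PBRM1 values. *Kcnk2* encodes a leak channel opened by stretch. It had 1.47, 1.21 and 1.13 for PBRM1 and 1.51, 1.82 and 0.865 for BRG1, so that BRG1 replicate 3 was lower than every PBRM1 library. The *Kcnk2* peak lay 187 kb from the 5′ end, upstream of a start near the far end of the gene, in every library except BRG1 replicate 3, whose strongest peak was at another start. The region at the far end still held a peak of 0.798 in that library.

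*Kcnn2* encodes a small-conductance calcium-activated channel, and its support came from separate sites. At its 5′ end the scaled pileup was 1.11, 0.938 and 0.667 in the PBRM1 libraries and 0.798 in BRG1 replicate 3, with no peak called in the other 2 BRG1 libraries. At internal starts about 290 kb further in, the strongest peaks of the BRG1 libraries had 1.01, 0.700 and 0.865, and PBRM1 replicates 1 and 2 had weaker peaks of 0.606 and 0.772. Each site thus held a peak in some libraries of both antibodies. When peaks of the 6 lists were merged and a gene was required to have the same region in every list, *Kcnn2* dropped out and the other 5 remained, compared with 39.1% of all genes. This requirement was added after the data were seen.

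**Figure D3:**
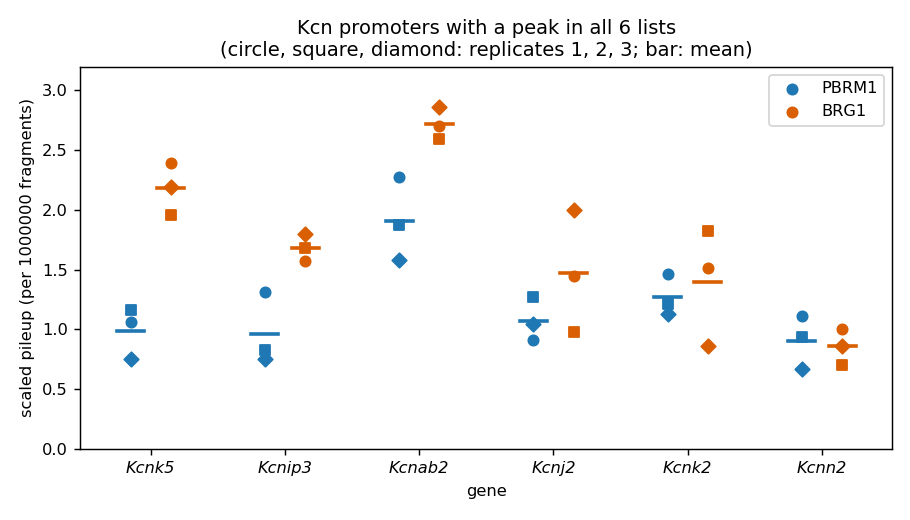
Scaled pileup (per 1000000 fragments, vertical axis) of the strongest promoter peak of each library at the 6 Kcn genes with a peak in all 6 lists, with PBRM1 in blue and BRG1 in orange. At *Kcnk5*, *Kcnip3* and *Kcnab2* every BRG1 point lies above every PBRM1 point, and at the other 3 genes the points overlap, with the *Kcnn2* values of PBRM1 and BRG1 taken at different starts.

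The sequence under 4 of these promoter peaks is shown. *Kcnab2* is not among them, because its pooled BRG1 summit lies in an annotated exon. Each stretch runs up to 100 bp to either side of the pooled BRG1 summit in the RefSeq sequence of GRCm38.p6, outside annotated exons, and is written 5′ to 3′ in the direction of the gene. *Kcnk5* is chr14:20181810-20181939 (minus strand), *Kcnj2* is chr11:111065985-111066163 (plus strand), *Kcnip3* is chr2:127482569-127482769 (minus strand) and *Kcnk2* is chr1:189215334-189215534 (minus strand). Capitals mark the GC box GGGCGG, which Sp-family factors bind, and the E-box CACGTG, read on either strand.
Kcnk5: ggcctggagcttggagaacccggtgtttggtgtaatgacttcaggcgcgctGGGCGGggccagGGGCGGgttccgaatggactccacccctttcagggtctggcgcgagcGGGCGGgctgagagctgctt
Kcnj2: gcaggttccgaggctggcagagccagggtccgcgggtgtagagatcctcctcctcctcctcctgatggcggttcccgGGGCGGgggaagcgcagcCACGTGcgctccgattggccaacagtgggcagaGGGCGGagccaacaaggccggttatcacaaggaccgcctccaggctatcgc
Kcnip3: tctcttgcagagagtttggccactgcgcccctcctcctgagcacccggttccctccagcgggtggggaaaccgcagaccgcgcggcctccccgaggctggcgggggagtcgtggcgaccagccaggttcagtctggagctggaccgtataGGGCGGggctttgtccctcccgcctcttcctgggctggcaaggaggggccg
Kcnk2: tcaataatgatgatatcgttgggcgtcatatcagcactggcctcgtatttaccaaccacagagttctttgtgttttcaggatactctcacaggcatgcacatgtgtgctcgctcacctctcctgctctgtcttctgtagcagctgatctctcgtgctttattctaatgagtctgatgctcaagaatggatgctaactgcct
The *Kcnk5* stretch holds 3 GC boxes, the *Kcnj2* stretch 2 GC boxes and 1 E-box and the *Kcnip3* stretch 1 GC box, and the *Kcnk2* stretch at the internal start holds neither. In the full 201 bp around the summits of all 6 promoters, GGGCGG was present at 5 (58.5% of all 9092 promoters with a peak in all 6 lists) and CACGTG at 2 (7.57%). The AP-1 site TGACTCA (2.2%), the TEAD word GGAATG (6.57%), the ETS word CCGGAA (22.1%) and the CArG box bound by SRF (0.770%) were each at 0 of the 6. All motifs were searched on both strands, and CCGGAA and GGAATG can overlap in the letters GGAA. With 6 promoters these counts are a description.

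A peak in 5 of 6 lists was found at 12 Kcn promoters, and at 1568 of all 21938 protein-coding genes. *Kcnab3*, another beta subunit gene, had the highest values, with 1.41 and 1.17 in PBRM1 replicates 1 and 3, none in replicate 2, and 1.95, 1.96 and 1.46 for BRG1. *Kcnab1* had 0.859 and 0.875 in the same PBRM1 libraries and 1.13, 1.54 and 1.33 for BRG1, but spread over several starts along the gene. Neither rested on 1 site: the region at the *Kcnab3* 5′ end was in 4 lists and another 5.92 kb inside in 3, while *Kcnab1* regions 77.8 and 188 kb inside were in 5 lists each. All 3 beta subunit genes thus had a promoter peak in at least 5 lists, although the *Kcnab2* peak cannot be given to that gene alone. Such support was common, with 9092 of all 21938 protein-coding genes in 6 lists and 1568 in 5. The pooled summit of *Kcnh4*, at -1865 bp and just inside the 2 kb limit, was nearer to the start of *Hcrt*. *Kcnk4*, another stretch-activated leak channel, had 0.707 and 0.709 in PBRM1 replicates 1 and 3 and 1.26, 1.19 and 1.33 for BRG1. Others were *Kcna7*, *Kcnd2*, *Kcne3*, *Kcnf1*, *Kcnj8*, *Kcnk7* and *Kcns2*.

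Among 25 channel genes known from smooth muscle, 3 had a promoter peak in all 6 lists (*Kcnj2*, *Kcnk2* and *Kcnn2*), 15 in 1 to 5 lists and 7 in none. The shares of all protein-coding genes were 41.4%, 23.7% and 34.9%. *Kcnma1*, the BK pore whose openings damp contraction in smooth muscle, had a promoter peak only in BRG1 replicate 3, at 0.798 scaled pileup, and in the pooled BRG1 list, at 0.686. The pooled summit lay at -32 bp from a *Kcnma1* start and 393 bp from the start of the noncoding gene *4930519K11Rik*. *Kcnmb1*, the BK accessory subunit typical of smooth muscle, had no promoter peak in any of the 8 lists, and neither did *Kcnmb2*, *Kcnj11* and *Kcnq1*. *Kcnmb4*, another BK subunit, had a peak among the replicate lists in BRG1 replicate 1 alone (0.755) and pooled peaks of 0.388 (PBRM1) and 0.464 (BRG1), with the pooled summit nearer to the start of *Kcnmb4os2*.

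Of the small-conductance calcium-activated genes, *Kcnn3*, which encodes a channel that restrains uterine contraction, had 1.51, 1.33 and 1.46 in the BRG1 libraries and 0.709 in PBRM1 replicate 3, with none in the other PBRM1 libraries. All BRG1 values were above the single PBRM1 value. BRG1 replicates 1 and 3 had their strongest peak at the 5′ end, and BRG1 replicate 2 and PBRM1 replicate 3 had theirs in a region 1.05 kb inside. *Kcnn1* had a peak in 2 PBRM1 and 2 BRG1 libraries, from 0.717 to 1.13, of which 3 shared a region 6.22 kb inside the gene. *Kcnn4*, the intermediate-conductance channel, had 1.19 in BRG1 replicate 2 alone among the replicate lists, and pooled peaks of 0.420 (PBRM1) and 0.708 (BRG1).

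ATP-sensitive channels in smooth muscle join the *Kcnj8* pore to the sulfonylurea receptor encoded by *Abcc9*. *Kcnj8* had 0.606 and 0.458 in PBRM1 replicates 1 and 3 and 1.07, 0.980 and 0.931 for BRG1, with every BRG1 value above both PBRM1 values. *Abcc9* had no promoter peak in a replicate list and low ones in both pooled lists (0.323 for PBRM1 and 0.420 for BRG1). *Kcnh2*, the erg channel, had 1.38, 0.910 and 1.26 for BRG1 and 0.938 in PBRM1 replicate 2, the only PBRM1 replicate with a peak. The BRG1 replicate 2 peak lay in a separate region 1.04 kb upstream of the 5′ end. The other lists with a peak shared a region 0.221 kb upstream. The voltage-gated *Kcna5* had 0.560 in BRG1 replicate 2 and no other replicate peak, *Kcna2* had 0.629 and 0.560 in BRG1 replicates 1 and 2, and *Kcnh1* had a peak only in the pooled BRG1 list. Of the Kcnq genes, which carry M-type and related currents, *Kcnq5* had 0.755 and 0.770 in BRG1 replicates 1 and 2. The leak channel *Kcnk3* had 1.26 in BRG1 replicate 2 alone among the replicate lists, and pooled peaks of 0.323 (PBRM1) and 0.818 (BRG1). *Kcnk6* had 0.792 to 1.21 in 4 libraries. The remaining accessory or silent subunits were *Kcne3*, with 0.455 to 0.998 in 5 libraries, *Kcns3*, with 0.375 to 0.840 in 4, and *Kcne4*, with 0.750 in PBRM1 replicate 3 and 0.678 in the pooled PBRM1 list. *Kcnd3*, an A-type channel, had 0.500 in PBRM1 replicate 3 and pooled peaks of 0.404 (PBRM1) and 0.619 (BRG1).

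Of 19 genes known mainly from neurons, none had a promoter peak in all 6 lists, 7 had one in 1 to 5 lists (*Kcnd2* in 5 and *Kcnt2* in 4) and 12 in none. Against these stand 41.4%, 23.7% and 34.9% of all protein-coding genes, and no test was made between the neuronal and smooth muscle lists. Of 9 genes for partners of potassium channels that are not Kcn genes, 1 (*Amigo1*, in BRG1 replicate 3) had a promoter peak in a replicate list and 8 had none. Among all protein-coding genes 65.1% had one in at least 1 list. The 9 include *Abcc8* and *Abcc9*, the leucine-rich BK subunits and the dipeptidyl peptidase-like subunits of A-type channels.

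Many mammalian promoters are rich in CpG dinucleotides, and CpG-rich Kcn promoters had few peaks in all 6 lists. The ratio of observed to expected CpG in 300 bp at the 5′ end of the gene, from 250 bp before the start, had a median of 0.479 over Kcn genes and 0.524 over all genes, and 35.1% of Kcn genes and 44.4% of all genes had a ratio of at least 0.6. Among these, 3 of 33 Kcn genes (9.09%) had a promoter peak in all 6 lists, compared with 67.6% of all 9734. In at least 1 list a peak was found at 21 of the 33 (63.6%), compared with 93.6%. With the 5′ end of the gene as its only start, the shares in all 6 lists were 6.06% and 64.4%. Examples of CpG-rich Kcn genes with no peak in any replicate list were *Kcnc1* (ratio 0.945), *Kcnj6* (1.05) and *Kcnj12* (0.909). Of Kcn genes with a ratio below 0.3, 15 of 27 (55.6%) had a peak in at least 1 list, compared with 27.0% of all such genes. With the 5′ end as the only start these were 10 of 27 (37.0%) and 19.6%, and a peak in all 6 lists at any start was found at 3.70% and 10.9%. Among them *Kcnf1* (0.145) and *Kcnk4* (0.204) had a peak in 5 lists, and *Kcnip3* (0.296), with its peak at an internal start, in 6.

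**Figure D4:**
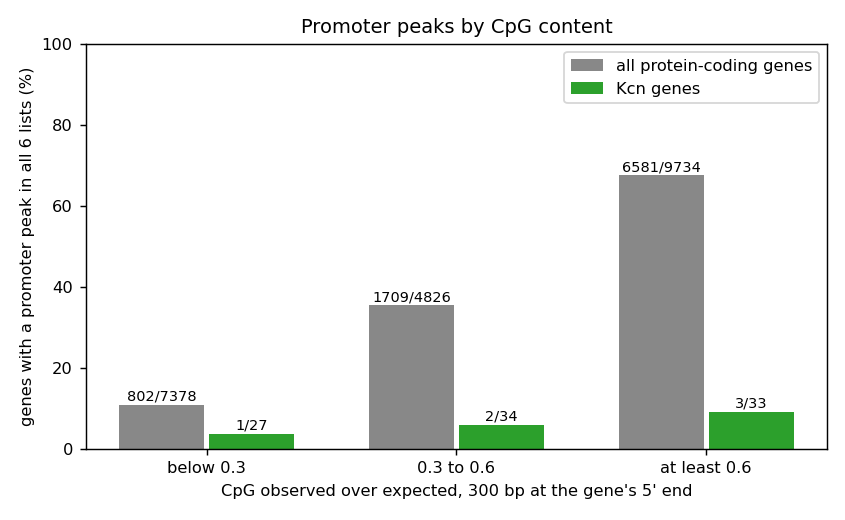
Percentage of genes with a promoter peak in all 6 lists (vertical axis) by the observed over expected CpG ratio of 300 bp at the 5′ end of the gene (horizontal axis), for all protein-coding genes (grey) and Kcn genes (green), with gene counts above the bars. The share of all genes climbs to 67.6% at a ratio of at least 0.6, where that of Kcn genes is 9.09%.

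To ask whether the antibodies differed in height at shared promoters, log2 scaled pileup was fitted with limma over the 9092 genes with a promoter peak in all 6 lists. The comparison had a background shift. The median difference over all genes was 0.59 on the log2 scale toward BRG1, and 75.1% of genes were called higher for BRG1 and 0.088% higher for PBRM1 at an adjusted p under 0.05. Of the 6 Kcn genes 3 were called higher for BRG1 and none for PBRM1. *Kcnk5* was 2.23-fold higher for BRG1 (log2 difference 1.16 ± 0.196 SE, limma adjusted p = 0.000139). *Kcnip3* was 1.80-fold higher (0.85 ± 0.204 SE, limma adjusted p = 0.00128) and *Kcnab2* 1.44-fold higher (0.52 ± 0.190 SE, limma adjusted p = 0.0165). An exact permutation test over the 6 libraries gave p = 0.1 for each of the 3, the smallest that 3 libraries against 3 allow. The call of *Kcnab2* was lost without BRG1 replicate 3 (limma adjusted p = 0.0586) or PBRM1 replicate 3 (limma adjusted p = 0.072). At these 3 genes all BRG1 libraries exceeded all PBRM1 libraries, which was true of 73.4% of all genes, and the reverse was true of 0.121%.

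Relative to the shift, the Kcn promoters spread to both sides. The log2 difference at *Kcnk5* exceeded that of 98.9% of the genes fitted, *Kcnip3* that of 85.6% and *Kcnab2* that of 38.1%. *Kcnj2* had a log2 difference of 0.41 (limma adjusted p = 0.082), above 23.3% of genes, and was called higher for BRG1 without BRG1 replicate 2 (0.68, limma adjusted p = 0.0139) or PBRM1 replicate 2 (0.54, limma adjusted p = 0.0396). *Kcnk2* had 0.08 (limma adjusted p = 0.719), above only 2.22% of genes. *Kcnn2* had -0.06 (limma adjusted p = 0.768), above 0.770% of genes, but its PBRM1 and BRG1 values came from different starts, so its difference is not one at a single site. With each library centred on its own median, limma called no Kcn gene, with 3 at an unadjusted p under 0.05. The centred log2 differences were 0.54 for *Kcnk5* (limma adjusted p = 0.151) and 0.23 for *Kcnip3* (limma adjusted p = 0.593), and that of *Kcnab2* changed sign to -0.09 (limma adjusted p = 0.851). With fold enrichment over the local background in place of pileup, limma called none of the 6, with 2 at an unadjusted p under 0.05.

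Away from promoters, regions were merged over the 6 lists and called distal when no summit lay within 2 kb of any annotated start. Each Kcn locus was taken as the gene body with 20 kb on either side. The 94 loci held 272 distal regions, and 68 loci (72.3%) had at least 1, compared with 59.9% of all loci. A region with a peak in all 6 lists was present at 18 Kcn loci (19.1%), compared with 14.1%. Kcn loci are longer, with a median of 70.8 kb compared with 57.4 kb. Per 100 kb they held 1.92 regions, fewer than the 2.49 over all loci, and 0.134 compared with 0.203 regions in all 6 lists. Single libraries had a peak in 96.3 ± 7.23 of these regions for PBRM1 and 99.3 ± 14.5 for BRG1 (SD, n = 3 each), which overlapped.

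Kcnn loci were the densest of the classes, with 3.64 distal regions per 100 kb, followed by Kcnm with 2.37, Kcnq with 2.07, Kcnj with 1.81, Kcna to Kcnh with 1.78, Kcnk with 1.65 and the others with 1.58. The 4 Kcnn loci ranged from 1.75 per 100 kb at *Kcnn2* to 7.18 at *Kcnn3*, which held 14 of their 28 regions. *Kcnma1* held the most regions of any Kcn locus, 24 over 765 kb, 23 of them touching the gene body, but none had a peak in all 6 lists. *Kcnab1* held 23 regions over 309 kb, *Kcnip1* 17 over 404 kb, *Kcnn3* 14 over 195 kb and *Kcnq1* and *Kcnq5* 13 each. *Kcnn1* was the only Kcn locus with 2 regions in all 6 lists. The other 17 loci with such a region had 1 each, and of these *Kcnab1*, *Kcnip1* and *Kcnq1* held the most regions in all.

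The strongest distal region lay 2495 bp upstream of *Kcnn1*, just outside the promoter limit. It spans 70865411 to 70866261 on chromosome 8 and overlaps the unclassified gene *A230052G05Rik*. A separate promoter peak of *Kcnn1*, with its pooled BRG1 summit at -1840 bp, lay just inside the limit. The scaled pileup of the distal region was 2.22, 2.04 and 2.08 for PBRM1 and 3.59, 3.29 and 4.12 for BRG1. Every BRG1 library exceeded every PBRM1 library, and all 6 values were above the highest at any Kcn promoter of the same library except PBRM1 replicate 1, where *Kcnab2* had 2.27. Next came a region 17.2 kb from the *Kcnn4* 5′ end, in its downstream flank, with 1.72, 1.27 and 1.38 for PBRM1 and 1.45, 1.68 and 1.86 for BRG1, where the groups overlapped.

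Over the 4450 distal regions with a peak in all 6 lists the shift toward BRG1 was smaller, with a median log2 difference of 0.27. Of all regions 11.6% were called higher for BRG1 and 0.427% higher for PBRM1. At Kcn loci 5 of 19 regions were called higher for BRG1 and none for PBRM1. The groups did not overlap, with BRG1 higher, at 8 of the 19, compared with 30.9% of all distal regions. The reverse was seen at none, compared with 1.91%.

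The region upstream of *Kcnn1* was 1.73-fold higher for BRG1 (log2 difference 0.79 ± 0.205 SE, limma adjusted p = 0.0101), and it was not called when centred (0.53, limma adjusted p = 0.146) or without BRG1 replicate 3 (0.70, limma adjusted p = 0.0583). It was also not called with fold enrichment over the local background (0.02, limma adjusted p = 0.958) or with summed pileup (0.79, limma adjusted p = 0.0605).

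Called regions near 3 other genes lay outside the gene bodies. A region 22.2 kb from the 5′ end of the leak channel gene *Kcnk16*, downstream of it, had 0.657, 0.717 and 0.834 for PBRM1 and 1.51, 1.12 and 1.33 for BRG1 (limma adjusted p = 0.00732). A region near *Kcnk7* lay inside *Ehbp1l1* and had 0.909, 0.993 and 0.750 for PBRM1 and 1.26, 1.61 and 1.33 for BRG1 (limma adjusted p = 0.0301). A region 15.1 kb upstream of *Kcns2* had 0.960, 0.662 and 0.709 for PBRM1 and 1.26, 1.33 and 1.06 for BRG1 (limma adjusted p = 0.0318). None of the 3 was called after centring, with fold enrichment or with summed pileup. The *Kcnk7* region was not called without BRG1 replicate 2 or 3 or PBRM1 replicate 1 or 3 (limma adjusted p from 0.0661 to 0.153), nor the *Kcns2* region without BRG1 replicate 1 or 2 or PBRM1 replicate 2 or 3 (limma adjusted p from 0.0859 to 0.125).

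At the remaining 14 regions the log2 difference ran from -0.09 to 0.61, and none passed the test. The highest was the second *Kcnn1* region (limma adjusted p = 0.0511), which was called without PBRM1 replicate 1 (0.83, limma adjusted p = 0.0358). Lowest were a region 319 kb into *Kcnd2*, with 0.808, 0.938 and 0.917 for PBRM1 and 0.818, 1.05 and 0.665 for BRG1, and a region 7.73 kb upstream of *Kcnf1*, at 0.00. A region 9.17 kb into *Kcnab1* had 1.41, 1.05 and 1.38 for PBRM1 and 1.26, 1.05 and 1.66 for BRG1, and a region 4.53 kb upstream of *Kcne4* had 1.01, 1.21 and 0.917 for PBRM1 and 2.01, 1.12 and 1.20 for BRG1. At both the groups overlapped.

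**Figure D5:**
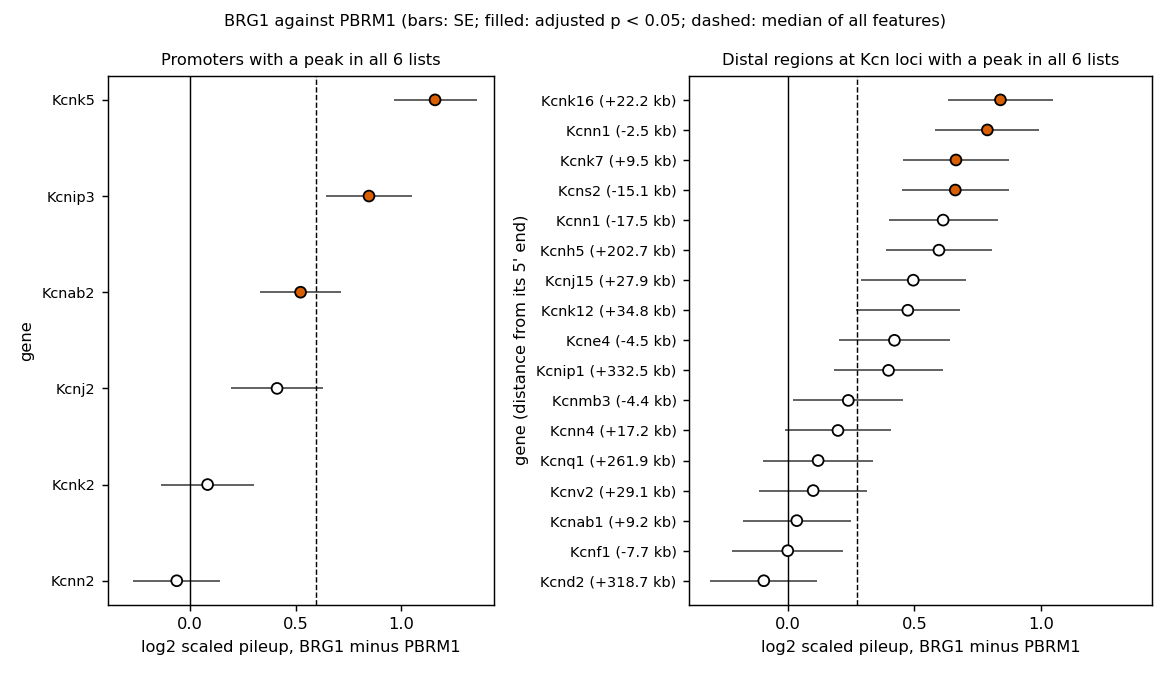
Log2 scaled pileup of BRG1 minus PBRM1 (horizontal axes) with its standard error at the 6 Kcn promoters (left) and 17 of the 19 distal regions at Kcn loci (right) with a peak in all 6 lists, filled where the limma adjusted p is under 0.05, with the median of all fitted features dashed. *Kcnk5* and the *Kcnk16* region lie farthest to the right, and *Kcnk2* and *Kcnn2* lie near 0, left of the promoter median of 0.59.

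The sequences at 3 distal regions are given because they include the 2 strongest regions and show both motif types. They are 201 bp around the highest summit in GRCm38.p6. The *Kcnn1* region is chr8:70865653-70865853 (minus strand), the *Kcnn4* region is chr7:24387356-24387556 and the *Kcnab1* region chr3:65118458-65118658 (both plus strand). Capitals mark the GC box GGGCGG, the AP-1 site TGACTCA or the TEAD word GGAATG on either strand, so each word may also appear as its reverse complement.
Kcnn1 upstream region: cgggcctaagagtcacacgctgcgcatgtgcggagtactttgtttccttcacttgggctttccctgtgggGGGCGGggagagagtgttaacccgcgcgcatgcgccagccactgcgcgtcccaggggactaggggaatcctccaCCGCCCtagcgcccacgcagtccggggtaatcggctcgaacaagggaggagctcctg
Kcnn4 downstream region: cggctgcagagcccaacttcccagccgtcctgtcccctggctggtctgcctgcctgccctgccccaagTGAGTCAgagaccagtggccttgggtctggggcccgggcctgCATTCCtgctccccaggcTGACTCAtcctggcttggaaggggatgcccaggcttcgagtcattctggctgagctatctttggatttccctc
Kcnab1 intragenic region: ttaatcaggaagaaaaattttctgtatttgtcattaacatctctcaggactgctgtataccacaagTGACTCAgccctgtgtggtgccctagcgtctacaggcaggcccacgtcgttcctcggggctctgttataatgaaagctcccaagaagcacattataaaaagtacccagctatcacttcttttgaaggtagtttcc
The *Kcnn1* stretch holds 2 GC boxes at a CpG ratio of 0.810. The *Kcnn4* stretch holds 2 AP-1 sites and 1 TEAD word at a CpG ratio of 0.198, and the *Kcnab1* stretch 1 AP-1 site at 0.410. The *Kcnj15* region, not shown, held none of the words searched in its 201 bp. Its mean scaled pileup over the 6 libraries was 1.39, above the 1.30 of the *Kcnab1* region. Over all 19 regions GGGCGG was present in 3 (10.5% of all 4450 distal regions), TGACTCA in 5 (15.4%), GGAATG in 4 (16.5%), CCGGAA in 1 (4.52%), and CACGTG (3.55%) and the CArG box (1.19%) in none.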

How the data were processed

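Peak lists of the 6 PBRM1 and BRG1 libraries and their 2 pools were used. Per the submitters' processing notes, reads were handled with cutadapt, Bowtie2 and MACS2 on GRCm38.p5. Per the file headers, MACS 2.2.7.1 called narrow peaks from paired fragments without a control, with a q cutoff of 0.05, an effective genome size of 2300000000 bp and background from the same library over 10 kb. MACS kept every duplicate it was given, and filters before it were not given in the sources used here. The deposited pileup is a coverage signal at the summit, with fold enrichment as its ratio to local background, and the authors deposited −log10 q for each peak. The deposited length is in bp. No peak ran past a GRCm38 chromosome end.

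Genes and starts came from GENCODE vM21 and sequence from RefSeq GRCm38.p6. Tables were made with Python 3.11.15, numpy 2.4.6, pandas 2.3.3 and scipy 1.17.1, and pileup was fitted with limma 3.58.1 in R 4.3.3, with Benjamini-Hochberg adjustment over all features and calls at 0.05, after testing on simulated data. Features absent from a list had no value, so fits used features in all 6 lists. The rule for named genes took the smooth muscle list, genes in all 6 lists, genes in every list of 1 antibody alone, called genes, the 5 loci with most distal regions in all 6 lists and examples of other lists. The remaining names were chosen after their values were seen. Members and lists were chosen with earlier results of these data known. Alternatives covered distance, starts, thresholds, scaling and libraries. A few genes and regions counted in the totals are not reported here.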

Additional observations from a re-analysis of the deposited data

How the results depend on the processing

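Over 50 results and 534 alternative values, 431 kept their direction and side of the threshold or moved within the set limit, 31 lost the threshold, 5 gained it, 65 moved and 2 reversed. The cause was not tested for any of these. The *Kcnab2* promoter difference reversed, with values of -0.056 with fold enrichment and -0.094 with centring.

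With peaks within 1 kb the Kcn share was 22.3% for PBRM1 and 31.2% for BRG1. With the gene 5′ end as the only start it was 21.3% and 28.0%, a difference of 6.74 points, with 3 genes in all lists and 1 Kcnm gene. At a −log10 q of at least 5 the shares were 8.87% and 17.4%, with 10 Kcna to Kcnh, 2 Kcnn, 3 other, 0 Kcnm and 0 Kcnq genes. With equal numbers of peaks they were 22.7% and 30.9%, a difference of 8.16 points, and the pooled lists held 23 and 26 genes. Leaving out 1 library gave 6 to 10 genes in every remaining list (10 without PBRM1 replicate 2) and 1 to 2 Kcnm genes (1 without BRG1 replicate 1 or 3).

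Promoter calls over all genes (BRG1 higher, PBRM1 higher) were 1426 and 19 with fold enrichment, 17 and 42 with centring and 3354 with summed pileup for BRG1, with no Kcn call in any of these 3. Those for PBRM1 were 14 with at least 2 lists of each antibody and 5 at the stricter q. With at least 2 lists of each antibody, 10 of 21 Kcn genes were called higher for BRG1 and 0 for PBRM1. Of all 11104 genes in that fit 70.0% were called higher for BRG1. Leaving out 1 library gave 2 to 7 Kcn calls, all higher for BRG1. There were 7 of 10 without PBRM1 replicate 2 (71.6% of all genes) and 2 of 6 without BRG1 replicate 3 (58.6% of all genes). Distal calls were 180 and 3 with fold enrichment (0 at Kcn loci), 49 and 63 with centring (1), and 76 and 3 with summed pileup (1). At the stricter q 362 of 1299 regions were called for BRG1 and 4 for PBRM1. At Kcn loci 1 of 3 was called, for BRG1. Leaving out 1 library gave 182 to 426 BRG1 calls, 11 to 33 PBRM1 calls and 3 to 5 at Kcn loci (3 without BRG1 replicate 2 or 3 or PBRM1 replicate 3). In each of these settings the distal calls at Kcn loci were all higher for BRG1.

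Without flanks, Kcn loci held 8 distal regions in every list and 67.3 (PBRM1) and 69.3 (BRG1) per library, with 50 kb flanks 136.3 and 133.3, and with equal numbers of peaks 86 and 79. At the stricter q there were 98 regions, 3 in every list and 35 per library for both.

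Whether shared replicate numbers paired the libraries was not given in the sources used here. Deviations of same-numbered libraries correlated at -0.0116, 0.0247 and -0.00977, and those of other pairs at -0.0228 to 0.0334. Such low correlations cannot decide the pairing, because peaks of few fragments vary by counting alone. With the number as a replicate block, 6676 promoters were called higher for BRG1 and 8 for PBRM1, and 586 and 24 distal regions. The 3 Kcn promoters and 7 distal regions at Kcn loci among them were all higher for BRG1. The 2 added calls were the second *Kcnn1* region (limma adjusted p = 0.0382) and a *Kcnh5* region (limma adjusted p = 0.0439).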

Other observations

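Other ion channel families gave the following values, chosen after the Kcn values were seen and not tested. By symbol, 3 of 26 voltage-gated calcium channel genes (Cacn) had a promoter peak in all 6 replicate lists, among them *Cacna1c*, the L-type pore that admits calcium for contraction. Of 14 voltage-gated sodium channel genes (Scn) none had one, and of 4 hyperpolarization-activated channel genes (Hcn) none did. Of 24 transient receptor potential genes (Trp) 3 had one, *Trpm4*, *Trpm7* and *Trpm8*. Of 9 chloride channel and transporter genes (Clcn) 6 had one (66.7%), compared with 6.38% of the 94 Kcn genes and 41.4% of all protein-coding genes.

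Within the Kcn genes, 2 of 17 accessory subunit genes (11.8%) and 4 of 77 pore-forming genes (5.19%) had a promoter peak in all 6 lists. In at least 1 list the shares were 52.9% and 54.5%.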
